A study of Mus musculus with 12 samples.

Results

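The matrix metalloproteases, the related ADAMTS proteases and their inhibitors were taken from the table of gene counts by symbol. The genes of interest were the protein-coding genes whose names are Mmp, Adamts or Adamtsl with a number, and Timp1 to Timp4. This gave 50 genes of the 54532 in the table, which held 22046 protein-coding genes. There were 22 MMP genes, 19 ADAMTS genes, 5 ADAMTS-like genes and 4 TIMP genes. The rule uses no measured value. Mmp1a was not included, since the table lists it as a polymorphic pseudogene.

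RNA from mouse spinal cord was sequenced in 12 libraries, 3 for each of 4 groups. The cKO EAE mice carried a conditional deletion of Drd2, labelled Drd2mGFAP cKO, and were sampled at day 17 of experimental autoimmune encephalomyelitis (EAE), which the series describes as the peak of disease. The control EAE mice were littermates labelled wt at the same day. The cKO basal mice and the control basal mice were the same genotypes without disease. All were C57BL/6 mice aged 2 to 3 months, and the labels give no floxed allele or Cre line for the littermates. Drd2 encodes a dopamine receptor, and EAE is an immune attack on myelin used as a model of multiple sclerosis. The label names GFAP, an astrocyte protein, so the deletion would concern GFAP-expressing cells, while the whole cord was sequenced. The study asked whether DRD2 in astrocytes affects inflammation of the central nervous system, per its title.

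MMPs and ADAMTS enzymes are zinc proteases that cut proteins of the extracellular matrix and of the cell surface. Most are made as inactive precursors, and TIMPs bind and block the active enzymes. In EAE, MMPs are known for opening the basement membranes that leukocytes cross on their way from blood vessels into the cord. ADAMTS enzymes are known for cutting the proteoglycans that surround neurons and glia, and ADAMTS-like proteins share their ancillary domains but have no protease domain.

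Of the 22 MMP genes, 9 lie side by side on chromosome 9 between positions 7272514 and 7699585 of mm10, a stretch of 427 kb. In order they are Mmp13, Mmp12, Mmp1b, Mmp3, Mmp10, Mmp8, Mmp27, Mmp20 and Mmp7. This cluster holds several of the MMPs that were nearly silent in the basal cord and present in control EAE cords, so its promoter sequences are shown. Each is the 110 bases before a RefSeq start of the gene on GRCm38.p6, read 5′ to 3′ on the strand of the gene. Mmp12 and Mmp7 have 2 RefSeq starts each, and the stretch shown is that of the start whose window held the motifs. The other window of each, which for Mmp12 is the one near the gene start of the table at 7344381, held neither motif. The strand is + for 8 genes and - for Mmp1b. Capitals mark the AP-1 motif TGANTCA, where N is any base, and the motif TATAAA. Both strands were searched, and none of the marked motifs overlapped another.
Mmp13: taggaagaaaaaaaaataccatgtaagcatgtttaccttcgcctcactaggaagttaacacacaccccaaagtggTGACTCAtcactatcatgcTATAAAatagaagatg
Mmp12: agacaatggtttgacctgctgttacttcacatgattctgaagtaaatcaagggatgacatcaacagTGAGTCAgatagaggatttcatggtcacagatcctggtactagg
Mmp1b: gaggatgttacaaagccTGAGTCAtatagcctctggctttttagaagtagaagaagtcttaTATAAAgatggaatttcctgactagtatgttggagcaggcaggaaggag
Mmp3: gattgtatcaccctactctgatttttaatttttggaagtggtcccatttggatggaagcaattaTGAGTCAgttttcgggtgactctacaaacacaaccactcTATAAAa
Mmp10: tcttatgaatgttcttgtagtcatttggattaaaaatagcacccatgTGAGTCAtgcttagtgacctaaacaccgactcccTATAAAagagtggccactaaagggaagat
Mmp8: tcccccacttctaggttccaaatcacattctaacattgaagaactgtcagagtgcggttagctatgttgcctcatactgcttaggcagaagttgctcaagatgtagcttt
Mmp27: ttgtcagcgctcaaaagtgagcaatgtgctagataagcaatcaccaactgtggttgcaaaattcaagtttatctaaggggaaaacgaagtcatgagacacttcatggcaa
Mmp20: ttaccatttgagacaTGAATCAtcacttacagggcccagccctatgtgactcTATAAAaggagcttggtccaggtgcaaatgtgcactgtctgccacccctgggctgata
Mmp7: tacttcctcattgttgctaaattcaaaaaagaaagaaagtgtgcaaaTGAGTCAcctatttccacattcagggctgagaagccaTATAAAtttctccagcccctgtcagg
The stretch of Mmp12 is chr9:7347264-7347373, that of Mmp3 is chr9:7445712-7445821 and that of Mmp8 is chr9:7558319-7558428. The window searched ran from 250 bases before to 50 bases after the start, and 35 of the 50 genes had at least 1, with 38 windows in all. A gene was counted if any of its windows held the motif. The AP-1 motif occurred in 7 of the 9 cluster genes and in 0 of the other 26 genes with a window, whereas 8.97% of all 27025 genes with a promoter held it. Its first base lay 35 to 95 bases before the start in those 7 genes. TATAAA occurred in 8 of the 9 and in 3 of the other 26, against 15.7% of all genes. In Mmp12 it lay 4 bases after the start, in Mmp8 it was on the opposite strand across the start, and in Mmp7 a second copy lay farther upstream, all outside the stretches shown. The cluster genes without the AP-1 motif were Mmp8 and Mmp27, while Mmp1b and Mmp20, which held it, had 0 counts in all libraries. These matches describe letters, not binding.

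**Figure D1:**
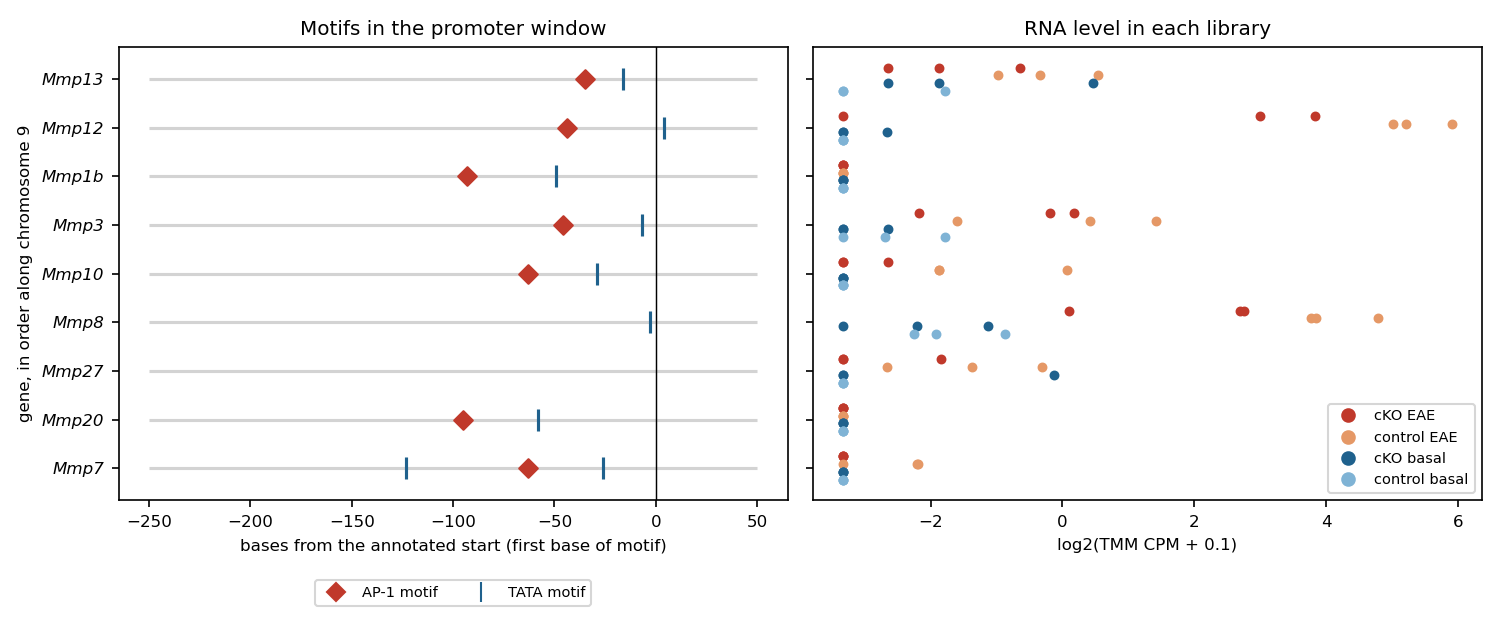
Left, the first base of each AP-1 and TATA motif in the promoter window of the 9 MMP genes of chromosome 9, in bases from the RefSeq start whose window held it (x axis). Right, the RNA level of each gene in each of the 12 libraries as log2(TMM CPM + 0.1), 1 point per library and colored by group; Mmp12 and Mmp8 are separated between control EAE and basal libraries, while Mmp1b and Mmp20 are at 0 counts in all.

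Library totals were 15128913 to 17592105 counts. The tissue label was checked against markers of oligodendrocytes, neurons and astrocytes, which were abundant in all 12 libraries. Drd2 was not lower by label: cKO EAE libraries had 6.72 to 19.4 CPM against 8.87 to 9.61 in control EAE libraries, and cKO basal libraries had 17.6 to 34.7 against 19.4 to 26.5 in control basal libraries. CPM here are library-size-scaled counts after TMM normalization, which serve to compare 1 gene between libraries. Among the libraries, 2 stood apart: cKO basal 2 had 17220 genes with a count, against 24303 to 26056 in the other 11, and cKO EAE 3 had 6.56 CPM of the antigen presentation gene Cd74, against 339 to 2733 in the other 5 EAE libraries. Cd74 itself differed with EAE, at most at 3.09 CPM in the basal libraries. Adjusted p given without these libraries are therefore conditional on a choice made from measured values. The female transcript Xist was at most at 0.287 CPM in the EAE libraries and at 316 to 752 in the basal libraries, and the Y-linked Ddx3y was at 69.6 to 74.4 CPM in the EAE libraries and 0 in the basal ones. EAE and sex therefore cannot be told apart in any comparison of EAE with basal cords.

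Levels of different genes were compared as TPM, which divides by gene length. Timp2 was the highest of the 50 genes in mean TPM in every group, at 478 ± 117 in cKO EAE, 373 ± 56.0 in control EAE, 450 ± 244 in cKO basal and 492 ± 44.5 in control basal cords (SD, n = 3 each). Timp1 reached 370 ± 59.6 TPM in control EAE cords, next to Timp2 and well within its spread, but 4.65 ± 2.55 in control basal cords. Adamts4, an aggrecanase known from oligodendrocytes, was the leading protease without disease, at 39.3 ± 32.5 TPM in cKO basal and 55.5 ± 23.5 TPM in control basal cords. In control EAE cords the leading protease was Mmp14, a membrane-bound collagenase that activates the Mmp2 precursor, at 98.4 ± 31.1 TPM.

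Summed over the 22 MMP genes, cKO EAE 1 to 3 held 178, 185 and 141 TPM and control EAE 1 to 3 held 316, 287 and 263. The basal sums were 140, 46.1 and 130 TPM in cKO 1 to 3 and 93.8, 145 and 150 in control 1 to 3. All 3 control EAE sums lay above all others, and the lowest sum was that of cKO basal 2. TPM carry no TMM factor, which was 0.728 in cKO basal 2 and 1.01 to 1.06 in the other 11 libraries. In TPM, Mmp14 of cKO basal 2 was below that of cKO EAE 1, at 15.5 against 26.8. In CPM after TMM normalization it was above, at 56.6 against 46.2. The low sum of cKO basal 2 is therefore not adjusted for library composition. The cluster of chromosome 9 alone held 15.5, 18.4 and 1.84 TPM in cKO EAE 1 to 3 and 53.6, 44.6 and 54.5 in control EAE 1 to 3. The 6 basal libraries held 0.166 to 1.38 TPM of the cluster, so that cKO EAE 3 lay close to the basal range.

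Timp1 made up 18.7%, 26.8% and 0.479% of the TIMP TPM in cKO EAE 1 to 3 and 41.1%, 41.4% and 49.0% in control EAE 1 to 3. In basal libraries it made up 0.248% to 0.634% in cKO and 0.349% to 1.09% in control. The TIMP sum per MMP sum was 3.23, 4.0 and 4.95 in cKO EAE and 2.36, 3.19 and 3.29 in control EAE. It was 4.25, 5.84 and 5.79 in cKO basal and 5.52, 4.15 and 4.13 in control basal libraries. The 3 control EAE ratios were below those of all 6 basal libraries, and the cKO EAE and control EAE ratios overlapped. These sums are of RNA and say nothing of active enzyme.

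**Figure D2:**
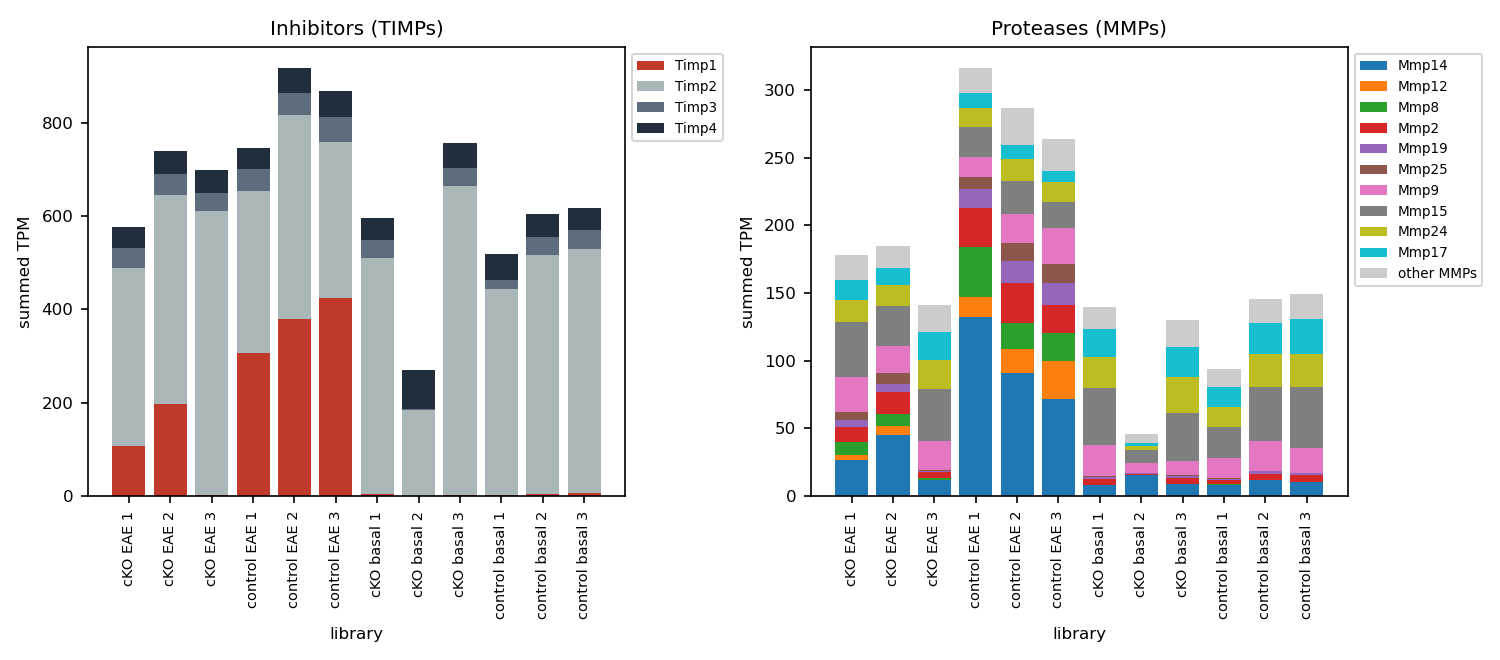
Summed TPM of the 4 TIMP genes (left) and of the 22 MMP genes (right) in each of the 12 libraries (x axis), stacked by gene. The Timp1 part of the TIMP bar is 41.1% to 49.0% in the control EAE libraries and 0.479% in cKO EAE 3, and the MMP bars are highest in the control EAE libraries.

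**Figure D3:**
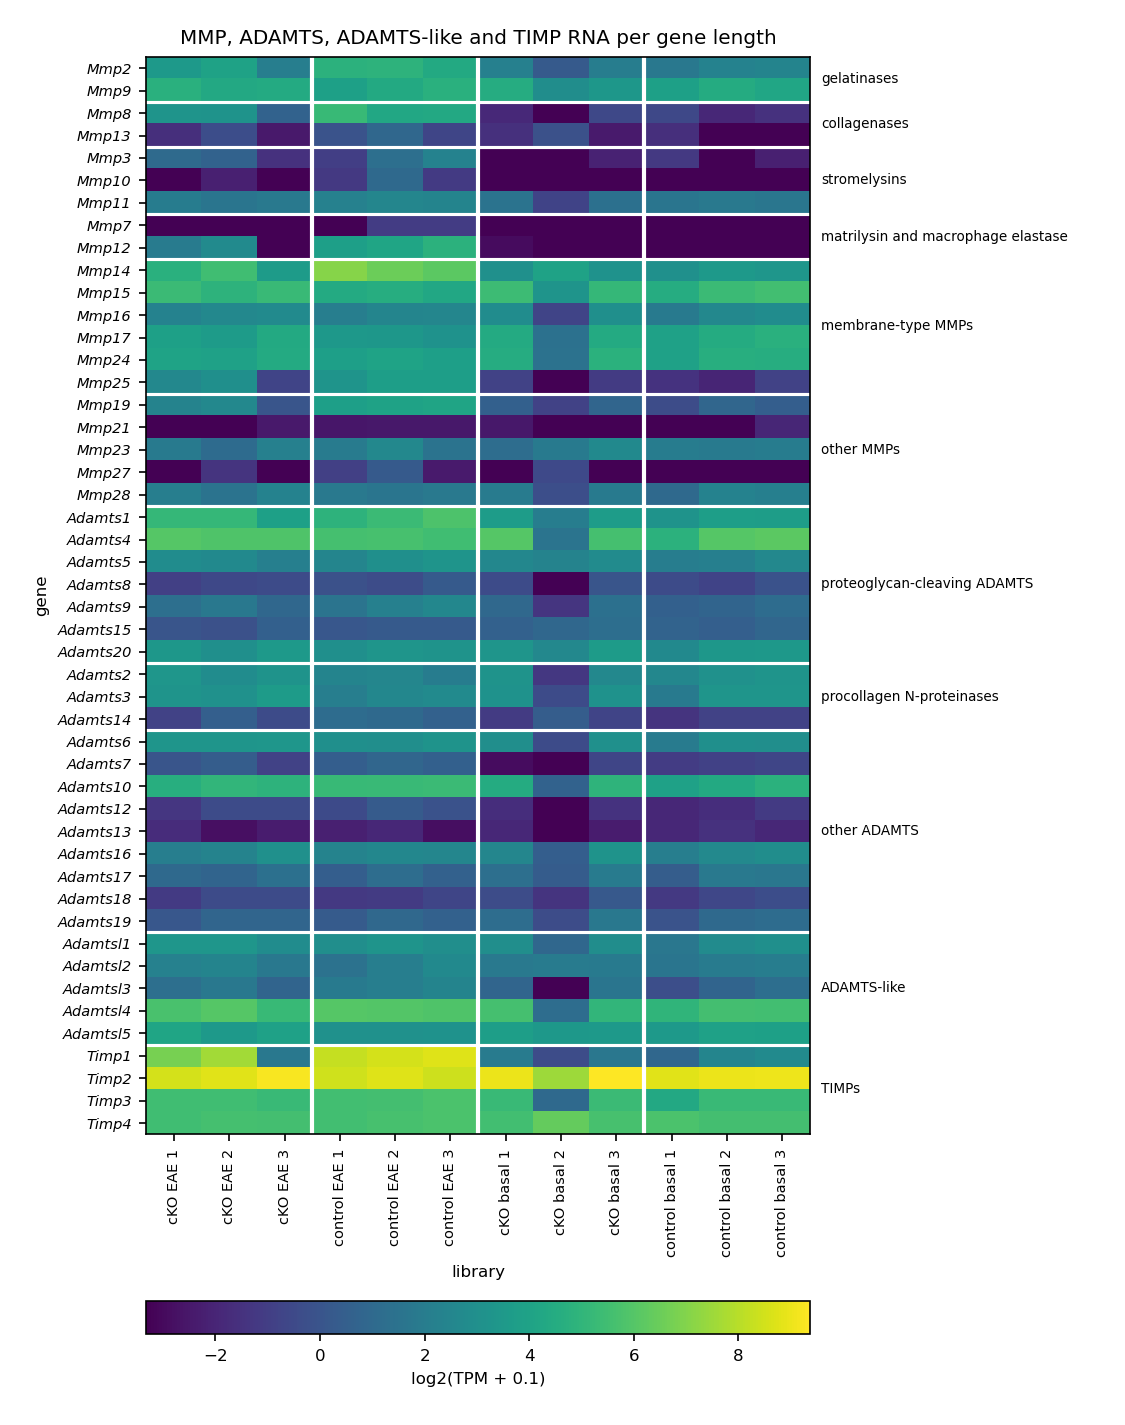
Level of each gene with any count as log2(TPM + 0.1), in color, with the 12 libraries across and the genes down by role. Timp2 is high in every library, and Mmp12 and Mmp8 are brighter in the control EAE libraries than in the basal libraries and cKO EAE 3.

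With EAE in control mice, the inhibitor Timp1, the macrophage elastase Mmp12, the neutrophil collagenase Mmp8 and 6 further proteases rose. A gene was called changed at an adjusted p below 0.05 in the quasi-likelihood test of edgeR, adjusted over all genes tested by the Benjamini-Hochberg method. Of 43 genes that passed the filter on low counts, 9 were called, all higher in control EAE than in control basal cords: Timp1, Mmp2, Mmp3, Mmp8, Mmp12, Mmp14, Mmp19, Mmp25 and Adamts1. That is 20.9% of the 43, against 17.1% of all genes tested and 12.1% for rises alone. The share of members called was thus near the background of calls in either direction and above that of rises. The median log2 fold change was 0.45 over the 43 and -0.01 over all 18601 tested genes. The filter kept Mmp3, Mmp8, Mmp12 and Mmp25 through their EAE counts, so these counts and medians describe the genes and support nothing further. Groups did not overlap for 22 of 43 upward (51.2%) and 7 of 43 downward (16.3%), against 29.8% and 27.0% of all genes.

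The count depended on cKO basal 2, which entered the fit of all 12 libraries through the shared spread: without it 25 of 43 genes were called (58.1%), against 42.9% of all genes. Without cKO basal 2 and cKO EAE 3, 27 of 43 were called, 21 up and 6 down, where the background was 45.8%. Of all 18956 genes tested in that fit, 4723 were called up and 3950 down. Falls thus made up a smaller share of the 43 than of all genes, and rises a larger one. The 6 that then fell were Mmp15, Mmp17, Mmp24, Adamts2, Adamtsl5 and Timp2. The p-values measure the spread between libraries labelled as biological replicates. In bulk tissue, fewer cells of a type and less RNA per cell cannot be told apart.

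In cKO mice 0 of 43 genes were called between EAE and basal cords, where 0.0376% of all genes were, 0.0323% upward and 0.00538% downward. Groups did not overlap for 7 of 43 upward (16.3%) and 2 downward (4.65%), against 9.8% and 5.78% of all genes. An unadjusted p below 0.05 was found for 11 of the 43 genes (25.6%), against 19.6% of all genes. Voom with library weights, a limma method, called 12 (27.9%) against 19.6% of all genes, and DESeq2 called 7 of the 45 with an adjusted p (15.6%) against 5.64%. Without cKO EAE 3, edgeR called 7 of 43 (16.3%) against 5.63%. Without both libraries that stood apart, 10 of 43 were called against a background of 14.3%: Timp1, Mmp2, Mmp8, Mmp12, Mmp14, Mmp19, Mmp25, Adamts1 and Adamts7 were higher, and Adamts15 was lower in cKO EAE than in cKO basal cords. Those higher were 20.9% of the 43, against 10.8% of all genes, and the 1 lower was 2.33%, against 3.51%. The difference of the responses, cKO minus control, was called for 0 of 43 genes and for 0.0% of all genes. There 6 genes had an unadjusted p below 0.05, where 9.12% of all genes did, voom called 9 (20.9%) where 16.1% of all genes were, and DESeq2 called 0, so that a different response in cKO mice was not shown by edgeR's test for any of the 43.

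At EAE, cKO against control, 1 of 42 genes tested was called where 7.67% of all genes were. It was Mmp15, a membrane-type protease, which was higher in cKO EAE cords. An unadjusted p below 0.05 was found for 15 of the 42 (35.7%), against 35.9% of all genes. Voom called 14 (33.3%) against 32.3%, and DESeq2 called 11 of the 43 with an adjusted p (25.6%) against 26.7%, so these shares were near the background. Groups did not overlap for 7 of 42 upward (16.7%) and 15 downward (35.7%), against 21.2% and 26.6% of all genes. Without cKO EAE 3, 12 of 43 were called against a background of 18.2%. In that fit Mmp15, Adamts2, Adamts3 and Adamtsl5 were higher, and Timp1, Mmp2, Mmp8, Mmp12, Mmp14, Mmp19, Mmp25 and Adamts10 were lower in cKO EAE cords. Those higher were 9.3% of the 43, near the 9.11% of all genes, and those lower were 18.6%, against 9.1% of all genes. The count of called genes was 8 without cKO EAE 2, where 18.6% of all genes were called. When any one of control EAE 1, 2 or 3 or cKO EAE 1 was left out, 0 genes of the whole table were called.

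Without disease, cKO against control, 0 of 38 genes tested by edgeR were called and 0 had an unadjusted p below 0.05, and 0.0% of all genes were called. DESeq2 and voom also called 0, voom with an unadjusted p below 0.05 for 2 of 38 (5.26%), against 5.02% of all genes. Mmp11 was the 1 gene whose groups did not overlap, at 2.15, 0.817 and 1.73 CPM in cKO basal and 2.60, 2.59 and 2.26 in control basal cords. Such separation was found downward for 3.64% and upward for 2.14% of all genes.

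**Figure D4:**
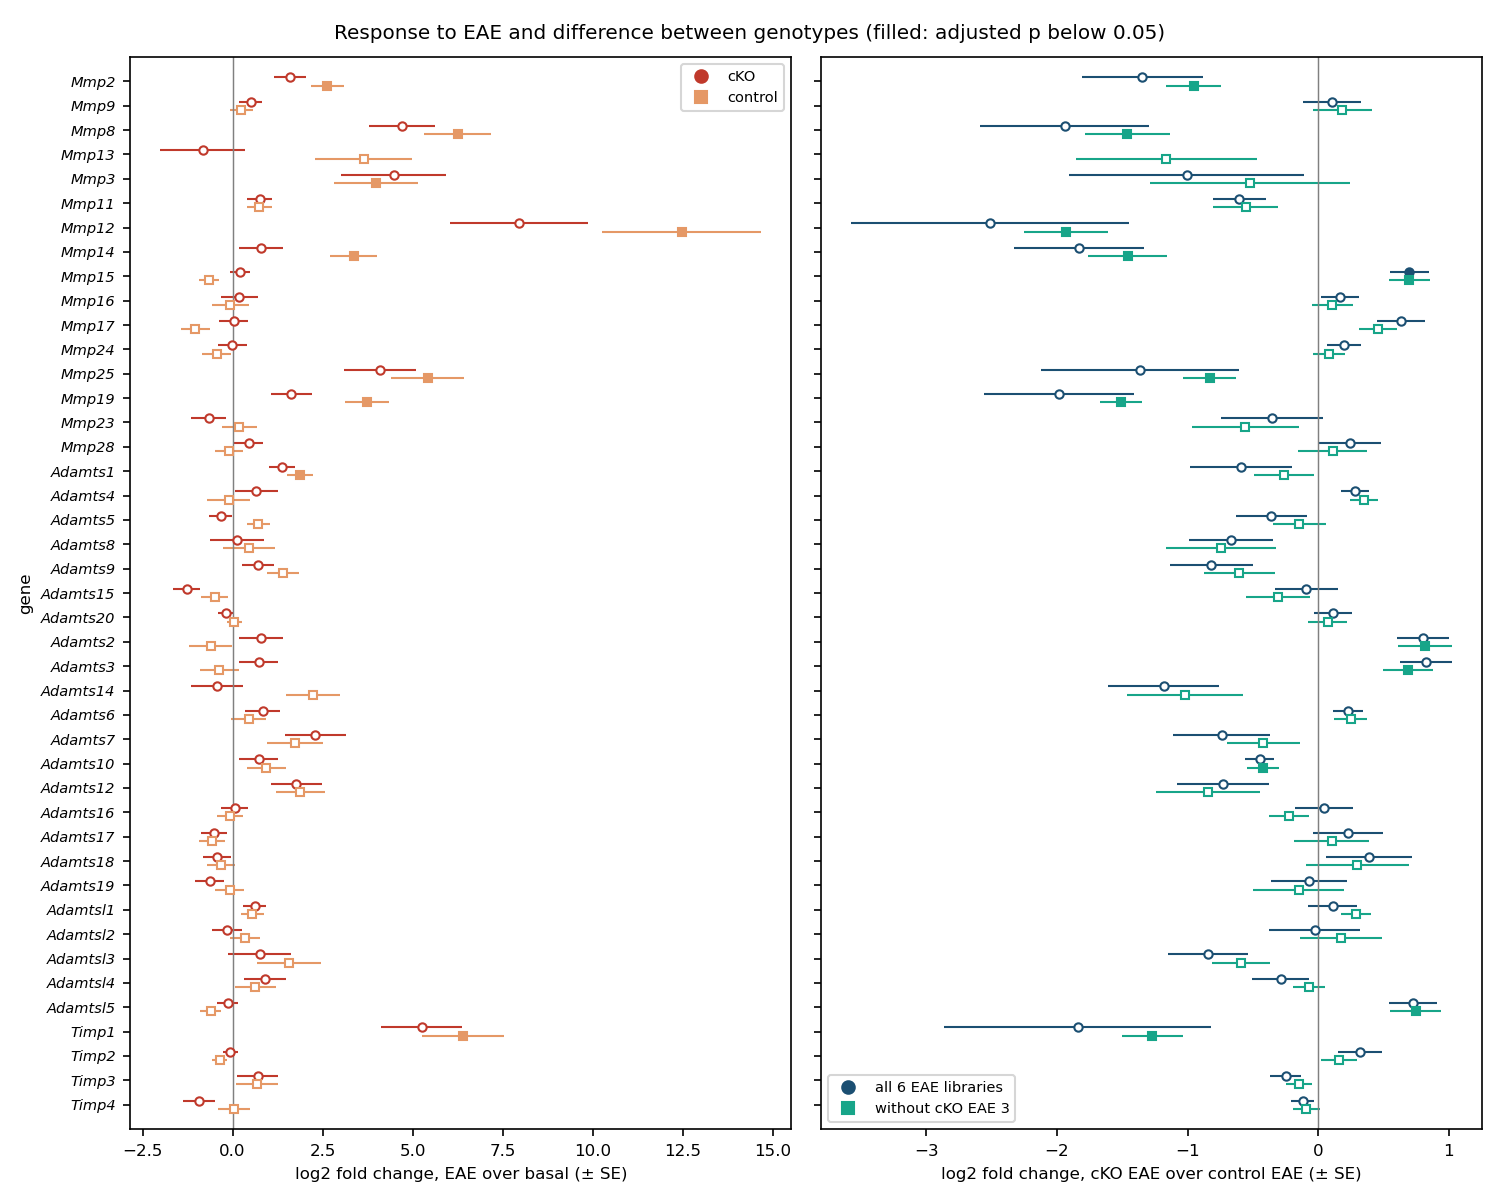
Log2 fold change ± SE (x axis) of each tested gene (down the page, by role), for EAE over basal in cKO and in control (left) and for cKO EAE over control EAE with and without cKO EAE 3 (right). Filled points have an adjusted p below 0.05: 0 in cKO and 9 in control on the left, and on the right 1 with all 6 libraries and 12 without cKO EAE 3; the fitted value of Mmp12 rests on a group with 0 counts.

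Among the inhibitors, Timp1 had the largest fold change with EAE. Timp1 is the soluble inhibitor made by activated astrocytes and other cells under inflammation, and lies on chromosome X at 20870166 to 20874735, within an intron of Syn1 on the other strand and sharing 0 exon bases with it. It had 27.6, 50.9 and 0.789 CPM in cKO EAE 1 to 3 and 83.3, 96.8 and 110 in control EAE 1 to 3. In basal cords it had 0.929, 0.363 and 0.715 CPM in cKO 1 to 3 and 0.508, 1.32 and 1.60 in control 1 to 3. Every control EAE library was above every other library, and cKO EAE 3 was at the basal level. Its log2 value with EAE was 5.25 ± 1.12 (SE) in cKO with an adjusted p of 0.0736 by edgeR's test, and 5.55 ± 0.42 with an adjusted p of 2.56e-06 without the libraries that stood apart. In control Timp1 rose by 6.38 ± 1.14, with an adjusted p of 0.00447. At EAE it was -1.84 ± 1.02 for cKO over control with an adjusted p of 0.233, and -1.27 ± 0.23 with an adjusted p of 0.0163 without cKO EAE 3.

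Timp2, which blocks MMPs and also helps Mmp14 to activate the Mmp2 precursor, was steady by comparison. It had 429, 502 and 630 CPM in cKO EAE and 414, 489 and 380 in control EAE cords, and 548, 437 and 652 in cKO basal and 544, 547 and 547 in control basal cords. The control EAE libraries were below the control basal ones, by -0.35 on the log2 scale with a 95% interval of -0.81 to 0.11. Without the libraries that stood apart, Timp2 was called lower with EAE in control. Timp3, the inhibitor bound to matrix that also blocks ADAMTS enzymes, had 103, 105 and 82.7 CPM in cKO EAE and 115, 112 and 128 in control EAE cords. It had 88.3, 9.54 and 81.6 CPM in cKO basal and 52.3, 85.0 and 85.6 in control basal cords, where cKO basal 2 was far below the rest. Its control value of 0.67 (interval -0.60 to 1.94) did not pass edgeR's test with all libraries, and was 0.68 ± 0.17 with an adjusted p of 0.00497 without the libraries that stood apart.

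Timp4, known from brain and heart, had 75.3, 85.0 and 75.9 CPM in cKO EAE and 81.8, 87.8 and 93.5 in control EAE cords. It had 74.8, 300 and 77.2 CPM in cKO basal and 102, 78.1 and 76.0 in control basal cords. The exception was again cKO basal 2, and the other 11 libraries lay close together. Its log2 value with EAE in control was 0.04 (interval -0.95 to 1.03) and was not called. Timp3 and Timp4 lie inside Syn3 and Syn2 on the other strand and share 1733 and 90 exon bases with them. Their counts, and those of Timp1 inside Syn1, may be affected by reads of the synapsin genes if strand was not used. Whether it was is not given in the sources used here. Mmp11, Mmp24, Mmp28, Adamts4, Adamts7, Adamts8 and Adamts9 likewise share 122 to 1381 exon bases with a gene on the other strand.

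**Figure D5:**
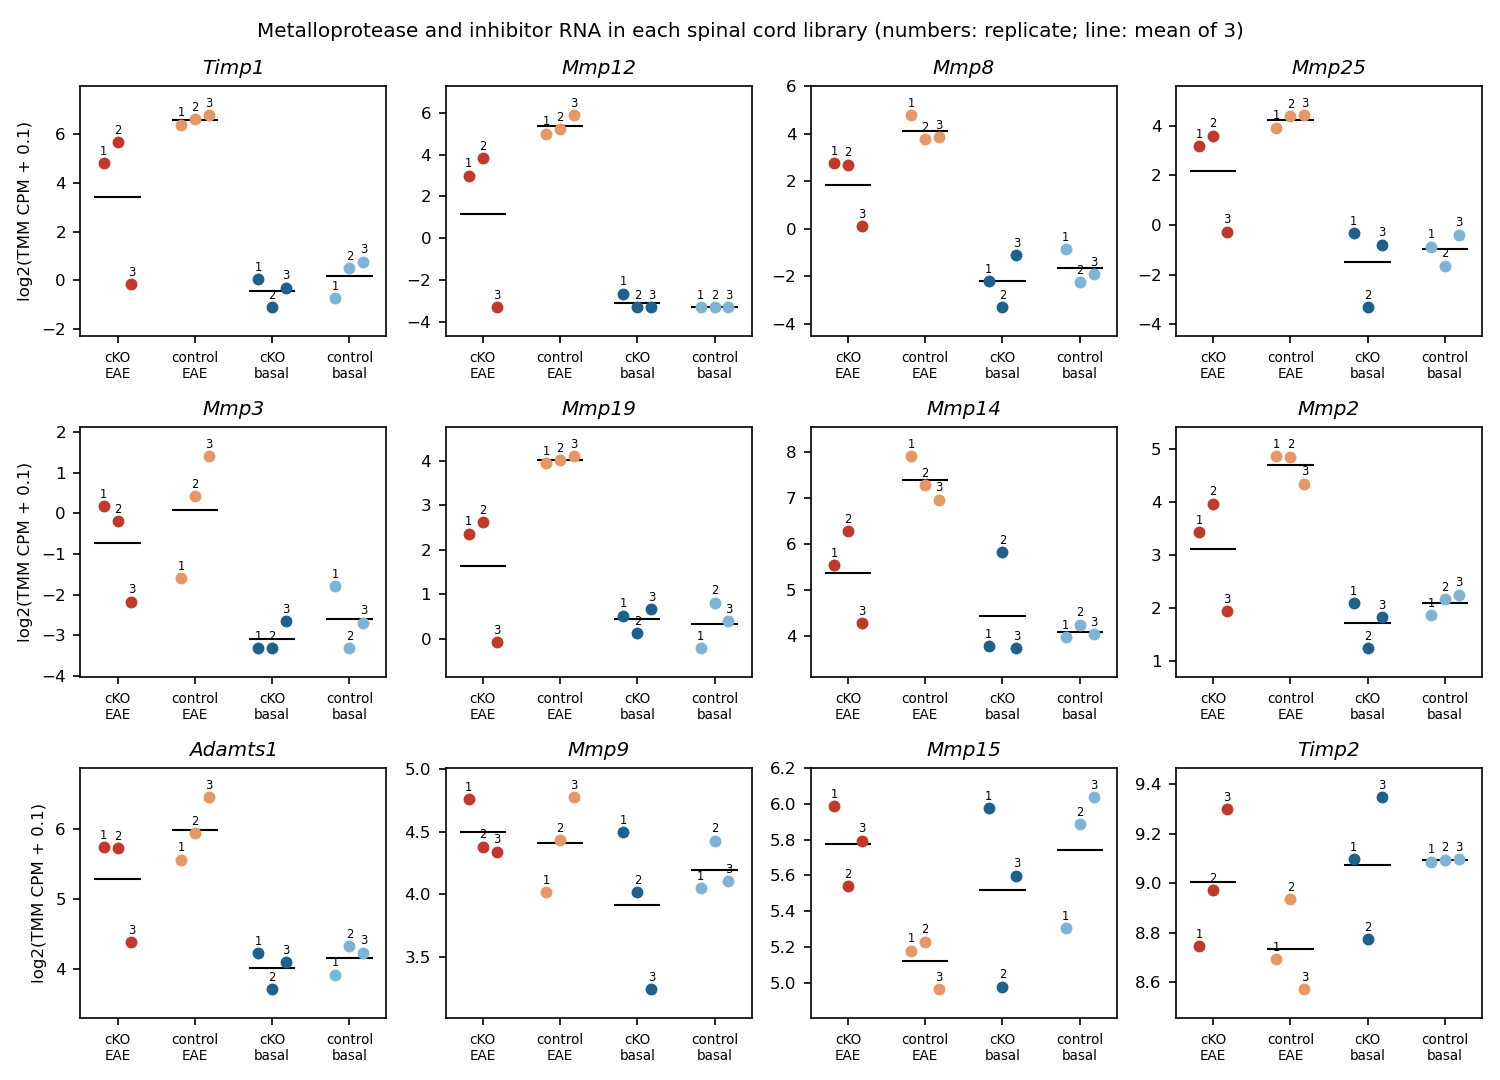
Level of 12 of the genes in each library as log2(TMM CPM + 0.1) (y axis), by group (x axis), with the replicate number at each point and a line at the mean of 3. Timp1, Mmp12, Mmp25 and Mmp19 of cKO EAE 3 lie at or near the level of the basal libraries, while the other 2 cKO EAE libraries lie between the basal and the control EAE libraries.

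The gelatinases, which cut denatured collagen and type IV collagen of basement membranes, differed: Mmp2 rose in control EAE and Mmp9 was not called. Mmp2, which is made by fibroblasts and other stromal cells and lies on chromosome 8 at 92827291 to 92853420, had 10.7, 15.6 and 3.76 CPM in cKO EAE 1 to 3 and 29.2, 29.0 and 20.3 in control EAE 1 to 3. It had 4.18, 2.27 and 3.45 CPM in cKO basal and 3.56, 4.41 and 4.69 in control basal cords. All control EAE libraries were higher than any other, and cKO EAE 3 was within the basal range. The log2 value of Mmp2 with EAE was 1.59 ± 0.45 in cKO (adjusted p 0.124 by edgeR's test). In control Mmp2 rose by 2.63 ± 0.46 (adjusted p 0.0041).

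Mmp9, the gelatinase stored in neutrophil granules and the MMP most often linked with EAE, lies on chromosome 2 at 164940780 to 164955850. It had 27.0, 20.7 and 20.2 CPM in cKO EAE and 16.1, 21.5 and 27.3 in control EAE cords. It had 22.4, 16.1 and 9.35 CPM in cKO basal and 16.5, 21.4 and 17.1 in control basal cords. The groups overlapped in every comparison. Its log2 value with EAE was 0.50 (95% interval -0.20 to 1.20) in cKO and 0.24 (-0.46 to 0.94) in control, and cKO EAE over control EAE gave 0.10 (-0.43 to 0.64). None was called, with all libraries or without the libraries that stood apart.

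Of the collagenases, Mmp8 rose and Mmp13 remained scarce. Mmp8, the collagenase of neutrophil granules, had 6.66, 6.34 and 0.971 CPM in cKO EAE 1 to 3 and 27.5, 13.5 and 14.2 in control EAE 1 to 3, and all 6 basal libraries were at 0 to 0.445. The 3 control EAE libraries were above the 3 of cKO EAE, and all 6 above the basal ones. With EAE in cKO, Mmp8 had a log2 value of 4.70 ± 0.93 (adjusted p 0.0726 by edgeR's test). In control Mmp8 rose by 6.25 ± 0.93 (adjusted p 0.00318). Mmp13 had 42 counts over the 3 control EAE and 3 over the 3 control basal libraries, a ratio of 14.2. The exact Poisson interval of the 3 basal counts alone gave 4.86 to 68.9, which covers their counting error only. Of the 18 counts of Mmp13 in cKO basal cords, 14 were in cKO basal 2. Mmp1b had 0 counts in all libraries.

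Neutrophil markers were high in 1 basal library as well. Their summed level, over 8 genes, was 145, 72.3 and 37.7 CPM in cKO EAE 1 to 3, 78.1, 103 and 101 in control EAE, 13.4, 126 and 4.59 in cKO basal and 24.3, 8.44 and 2.37 in control basal libraries. Of the 7 that were tested with all libraries, edgeR called 0 in either EAE response, where 0.0376% of all genes were in cKO and 17.1% in control. Its unadjusted p was below 0.05 for 1 in cKO and 4 in control, where 3643 and 5323 of 18601 genes had such a p. Without the libraries that stood apart it called 8 of 8 in cKO and 6 of 8 in control, where 14.3% and 45.8% of all genes were. The part of neutrophils in the levels of Mmp8, Mmp9 and Mmp25 was not tested.

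Mmp12, the macrophage elastase, had the largest rise with EAE in control among the 50 genes. It had 7.87, 14.1 and 0 CPM in cKO EAE 1 to 3 and 32.0, 36.7 and 59.6 in control EAE 1 to 3, and of the basal libraries only cKO basal 1 had a count, at 0.0581 CPM. The 3 control EAE libraries stood above the cKO EAE libraries, of which cKO EAE 3 had no count. In cKO the counts were 372 with EAE against 1 without, a ratio of 360, with an adjusted p of 0.0953 by edgeR's test. The 95% exact Poisson interval of the 1 basal count alone gave ratios of 64.5 to 14202. In control Mmp12 rose with EAE, with 2200 counts against 0, at least 744-fold when the 3 libraries at 0 are given 3 counts in all, and an adjusted p of 0.00623. The log2 value of cKO EAE over control EAE was -2.51 ± 1.06 (adjusted p 0.143), and -1.93 ± 0.32 (adjusted p 0.0151) without cKO EAE 3. Mmp7, the matrilysin, had 4 counts in control EAE libraries and 0 in all others.

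Markers of macrophages and monocytes, summed over 5 genes, were at 453, 849 and 29.6 CPM in cKO EAE 1 to 3 and at 3805, 1988 and 1439 in control EAE 1 to 3. In the basal libraries the sum was 12.5 to 17.9 in cKO and 14 to 23.6 in control, and none of the 5 markers was at 0 in all 6. All 5 rose with EAE in control, where 12.1% of all genes did, and cKO EAE 3 was again near the basal range. Astrocyte markers, over 5 genes, were at 4992, 6165 and 1959 CPM in cKO EAE, 6118 to 7626 in control EAE and 1892 to 2510 in basal libraries. Microglia markers, over 4 genes, were at 256, 448 and 134 in cKO EAE, 489 to 538 in control EAE and 75.7 to 127 in basal libraries. With EAE in control, 2 of 5 and 4 of 4 were called, where 17.1% of all genes were. The part of any of these cells in the levels of Mmp12, Mmp14, Mmp19 and Timp1 was not tested.

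The stromelysins Mmp3 and Mmp10 cut proteoglycans and laminin and activate other MMP precursors. Mmp3 was low, at 1.03, 0.778 and 0.121 CPM in cKO EAE 1 to 3 and 0.230, 1.24 and 2.56 in control EAE 1 to 3, with 0 to 0.191 in the basal libraries. The 3 control EAE libraries differed widely. In cKO it had 33 counts with EAE and 1 without, a ratio of 31.9. The 95% exact Poisson interval of the 1 basal count alone gave 5.72 to 1260. In control Mmp3 rose by 3.98 ± 1.16 (adjusted p 0.0386 by edgeR's test), but the call was lost when any one of control basal 1, 2 or 3, control EAE 2 or 3, cKO basal 3 or cKO EAE 1 or 2 was left out, with adjusted p of 0.0558 to 0.172. Mmp10 had 22 counts in control EAE libraries, 16 of them in control EAE 2, and 0 in control basal libraries, at least 7.44-fold. Mmp11 had 3.16, 2.33 and 2.49 CPM in cKO EAE and 3.98, 4.37 and 4.13 in control EAE cords, which did not overlap, with a log2 value of -0.60 ± 0.20 (adjusted p 0.0928).

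Of the membrane-type proteases, Mmp14 and Mmp25 were higher with EAE in control and Mmp15 was the exception between genotypes. Mmp14, on chromosome 14 at 54431612 to 54445364, had 46.2, 77.6 and 19.4 CPM in cKO EAE 1 to 3 and 242, 156 and 125 in control EAE 1 to 3. It had 13.7, 56.6 and 13.2 CPM in cKO basal and 15.6, 18.9 and 16.3 in control basal cords. The control EAE libraries were the highest of all, and cKO basal 2 reached the range of cKO EAE. The log2 value of Mmp14 with EAE was 0.78 ± 0.60 in cKO (adjusted p 0.497 by edgeR's test), or 2.19 ± 0.30 (adjusted p 0.000255) without the libraries that stood apart. In control Mmp14 rose by 3.36 ± 0.65 (adjusted p 0.00619). The log2 value of cKO EAE over control EAE was -1.83 ± 0.50 (adjusted p 0.063), and the difference of the responses was -2.58 ± 0.86 (adjusted p 0.547).

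Mmp25, a protease tethered by a lipid anchor and known from neutrophils, had 9.02, 12 and 0.728 CPM in cKO EAE 1 to 3 and 15, 20.9 and 21.5 in control EAE 1 to 3, with 0 to 0.697 in the basal libraries. Again cKO EAE 3 was next to the basal level. With EAE in cKO, Mmp25 had a log2 value of 4.09 ± 0.99 (adjusted p 0.0836 by edgeR's test). In control Mmp25 rose by 5.41 ± 1.02 (adjusted p 0.00536).

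Mmp15, on chromosome 8 at 95352268 to 95375080, had 63.3, 46.5 and 55.4 CPM in cKO EAE 1 to 3 and 36.1, 37.4 and 31.1 in control EAE 1 to 3. It had 62.9, 31.4 and 48.4 CPM in cKO basal and 39.4, 59.1 and 65.7 in control basal cords. All cKO EAE libraries were above all control EAE libraries, and the basal groups overlapped. Mmp15 was higher by 0.70 ± 0.15 in cKO EAE than in control EAE cords (adjusted p 0.0474 by edgeR's test). The call was lost, with adjusted p of 0.118 to 0.169, when any one of control EAE 1, 2 or 3 or cKO EAE 1 was left out.

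Of 4 neuronal markers, 1 was called higher in cKO EAE than in control EAE cords, Snap25, where 6.13% of all genes were. Syt1 overlapped between the groups. Their sum, most of it Snap25, was 2397, 2169 and 3137 CPM in cKO EAE 1 to 3 and 1264, 1563 and 1267 in control EAE 1 to 3. The oligodendrocyte sum over 4 genes was 19677, 17743 and 15069 CPM in cKO EAE and 12760, 12243 and 9370 in control EAE libraries. Of these 4 genes, 0 were called with all libraries and 4 without cKO EAE 3, where 7.67% and 18.2% of all genes were. The part of these cells in the levels of Mmp15 was not tested. Mmp17, a lipid-anchored protease, had 27.7, 23.9 and 36.2 CPM in cKO EAE and 21.7, 19.6 and 16.8 in control EAE cords, with a log2 value of 0.64 ± 0.18 (adjusted p 0.07). Mmp24, known from neurons, and Mmp16 had adjusted p of 0.319 and 0.427 in that comparison.

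Mmp19 led the remaining MMPs. It lies on chromosome 10 at 128790910 to 128800824 and shares 789 exon bases with Tmem198b on the other strand. It had 5.05, 6.04 and 0.850 CPM in cKO EAE 1 to 3 and 15.4, 16.1 and 17.2 in control EAE 1 to 3. It had 1.34, 0.999 and 1.49 CPM in cKO basal and 0.762, 1.66 and 1.21 in control basal cords. The control EAE libraries were close together and above all others, and cKO EAE 3 lay within the basal range. With EAE in cKO, Mmp19 had a log2 value of 1.63 ± 0.58 (adjusted p 0.192 by edgeR's test). In control Mmp19 rose by 3.73 ± 0.61 (adjusted p 0.00331). At EAE, cKO over control gave -1.99 ± 0.58 (adjusted p 0.0708), and -1.51 ± 0.16 (adjusted p 0.015) without cKO EAE 3. Mmp23 and Mmp28 were not called in any comparison with all libraries, Mmp20 had 0 counts, and Mmp21 and Mmp27 were too low to be tested. Of 18 counts of Mmp27 over the control EAE libraries, 12 were in control EAE 2, against 0 in control basal libraries, at least 6.09-fold.

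Of the 7 ADAMTS genes known for cutting proteoglycans, Adamts1 was called. Adamts1, which cuts versican and aggrecan and lies on chromosome 16 at 85793827 to 85803113, had 53.2, 53.0 and 20.8 CPM in cKO EAE 1 to 3 and 47.2, 61.4 and 87.9 in control EAE 1 to 3. It had 18.6, 13 and 17.0 CPM in cKO basal and 15.1, 20.0 and 18.7 in control basal cords. All EAE libraries were above all basal libraries, with cKO EAE 3 just above. With EAE in cKO, Adamts1 had a log2 value of 1.38 ± 0.36 (adjusted p 0.0965 by edgeR's test). In control Adamts1 rose by 1.87 ± 0.36 (adjusted p 0.00628).

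The aggrecanases Adamts4 and Adamts5 were not called with all libraries. Adamts4 had 89.2, 82.3 and 74.7 CPM in cKO EAE and 73.4, 71.2 and 62.9 in control EAE cords, and 87.1, 8.36 and 60.6 in cKO basal and 43.5, 86.6 and 93.2 in control basal cords. The low library was cKO basal 2. Adamts5 had 22.4, 19.9 and 12.5 CPM in cKO EAE and 18, 24.2 and 30.0 in control EAE cords, and 17.1, 33.2 and 18.9 in cKO basal and 13.8, 12.8 and 17.4 in control basal cords. Its value in control was 0.71 ± 0.32 (adjusted p 0.174 by edgeR's test), and 0.72 ± 0.19 (adjusted p 0.00765) without the libraries that stood apart. Adamts9, a versicanase, gave 1.41 ± 0.44 in control (adjusted p 0.0508), and 1.42 ± 0.24 (adjusted p 0.000455) without those libraries. Adamts8, Adamts15 and Adamts20 had adjusted p of 0.438 to 0.936 in control.

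The procollagen N-proteinases Adamts2, Adamts3 and Adamts14 trim procollagens before fibrils form. Adamts2 had 26.8, 19.4 and 22.5 CPM in cKO EAE and 15, 15 and 10.5 in control EAE cords, and Adamts3 had 14.6, 13.1 and 18.1 against 7.09, 8.99 and 10.5. In both, every cKO EAE library was above every control EAE library. Their log2 values of 0.80 ± 0.20 and 0.82 ± 0.20 had adjusted p of 0.0538 and 0.0536 by edgeR's test, just outside the threshold. Adamts14 ran the other way, at 0.689, 2.03 and 0.911 CPM in cKO EAE and 3.40, 2.90 and 2.15 in control EAE cords, with -1.18 ± 0.42 and an adjusted p of 0.103. The fibroblast and meningeal markers, summed over 5 genes, were at 336, 261 and 87.8 CPM in cKO EAE 1 to 3 and 320 to 371 in control EAE libraries, with 49.7 to 58.9 in the basal libraries.

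Schwann cell and root markers were uneven too. Their sum over 3 genes was 272, 2.39 and 119 CPM in cKO EAE 1 to 3 and at most 2.68 in control EAE libraries and 7.03 in basal ones. The part of roots in the levels of Adamts2, Adamts3 and the other genes was not tested.

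The other 9 ADAMTS genes were not called in any comparison with all libraries by edgeR's test. Adamts10, which acts on fibrillin microfibrils, had 38.9, 51.5 and 43.2 CPM in cKO EAE and 62.1, 61.1 and 63.5 in control EAE cords, which did not overlap. Its value was -0.45 ± 0.11 (adjusted p 0.0549). Adamts7 and Adamts12, which cut the cartilage matrix protein COMP, had 0.789 to 2.27 and 0.976 to 2.03 CPM in cKO EAE and 2.48 to 3.07 and 2.07 to 3.66 CPM in control EAE cords. Adamts13, which cuts von Willebrand factor, was too low to be tested. Adamts6 had 21.1 to 22.1 CPM in cKO EAE and 17.2 to 20.9 in control EAE cords (adjusted p 0.189), and Adamts16, Adamts17, Adamts18 and Adamts19 had adjusted p of 0.423 to 0.902 in that comparison.

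The 5 ADAMTS-like genes were not called with all libraries. Adamtsl4, a fibrillin-binding protein, was the most abundant of them per length. It had 63.1, 78.6 and 41.4 CPM in cKO EAE and 83.5, 75.4 and 70.5 in control EAE cords, and 57.7, 5.72 and 34.5 in cKO basal and 42.3, 54.6 and 51.1 in control basal cords. Adamtsl5 had 23.7, 15.3 and 18.9 CPM in cKO EAE and 12.1, 11.6 and 12.2 in control EAE cords, which did not overlap, with 0.73 ± 0.18 (adjusted p 0.0564 by edgeR's test). Adamtsl3 had 5.34, 7.36 and 3.28 CPM in cKO EAE and 8.24, 9.34 and 11.9 in control EAE cords, with -0.85 ± 0.31 (adjusted p 0.105).

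Regulators and relatives of these proteases were read from a list of 35 genes, of which 32 were tested. With EAE in control 15 rose and 3 fell, where 12.1% and 5.05% of all genes did, and the median log2 value was 1.00 over the 32 and -0.01 over all genes. Among the genes of plasminogen activation, which yields plasmin, an activator of MMP precursors, 4 of 5 tested rose. The urokinase receptor Plaur had 7.06, 7.42 and 0.728 CPM in cKO EAE and 24, 16.7 and 23.6 in control EAE cords, with at most 0.774 in the basal libraries. It rose by 5.33 ± 0.94 in control (adjusted p 0.00434 by edgeR's test), and urokinase, Plau, rose by 3.30 ± 0.62 (adjusted p 0.00538). Plaur of cKO EAE 3 was at the basal level, as was Timp1.

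Of the activators and binding partners, Lcn2, which binds Mmp9, rose by 8.63 ± 1.09 in control, with 103, 215 and 18.2 CPM in cKO EAE and 623, 758 and 739 in control EAE cords. The protease-trapping A2m and the proprotein convertase Furin, which activates membrane-type MMPs, rose by 3.54 ± 0.58 and 2.04 ± 0.43. Spock1 and Spock3, matrix proteoglycans known to affect MMP activation, fell by 0.84 and 1.45 on the log2 scale. Of the related ADAM proteases, Adam8, Adam9, Adam10, Adam12 and Adam17 rose and Adam22 fell. In cKO, 0 of the 32 were called by edgeR's test, where 0.0376% of all genes were. Its unadjusted p was below 0.05 for 13 of the 32, against 19.6% of all genes. Without the libraries that stood apart 15 of 33 rose and 1 fell, where 10.8% and 3.51% of all genes did.

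At EAE, cKO against control, 6 of the 32 were higher and 2 lower, against 6.13% and 1.54% of all genes. The unadjusted p of edgeR's test was below 0.05 for 25 of the 32, against 35.9% of all genes. Adam22 and Adam23, which lack protease activity and act at synapses, Spock1, Spock2, Spock3 and Pcsk6 were higher, by 0.63 to 1.12 on the log2 scale. Furin and Adam12 were lower, at -1.30 ± 0.25 (adjusted p 0.044 by edgeR's test) and -1.62 ± 0.34 (adjusted p 0.0473). Without cKO EAE 3, 6 were higher and 13 lower, where 9.11% and 9.1% of all genes were. All 8 calls with all libraries were lost, as was every call in the table, when any one of control EAE 1, 2 or 3 or cKO EAE 1 was left out, with the replicate number as a block, and in the fit of all 12 libraries. At basal 0 of 30 were called by edgeR's test, and 0 had an unadjusted p below 0.05.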

How the data were processed

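The authors deposited raw read counts per gene. The submitters' processing notes name HISAT2 2.0.5, featureCounts 1.5.0-p3 and the build mm10. Whether counting used strand, and how multi-mapping reads were handled, is not given in the sources used here. Symbols, biotypes, coordinates and lengths came from the deposited table, and 49 of the 50 genes had the same coordinates in GENCODE M21. Promoter sequences came from RefSeq on GRCm38.p6.

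Counts were fitted with edgeR 4.0.16 (limma 3.58.1, R 4.3.3) by its quasi-likelihood test on the whole table, with TMM factors, its filter on low counts and group as the only term. Both EAE responses and their difference came from 1 fit of all 12 libraries, and the genotypes were compared within 6 EAE and 6 basal libraries. The SE is the log2 value divided by the square root of F. Other tools were DESeq2 1.42.0 and limma voom with library weights. The functions were tested on simulated data. TPM used the deposited gene lengths, and figures added 0.1 before the log.

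The genes and lists were chosen with earlier results of these data known. Named with values were the TIMPs, a set of 12 proteases known from the nervous system and EAE, members called between genotypes, and up to 4 called members of each role group in each EAE comparison. Other members are given by range, or with values because they passed without cKO EAE 3, lay near the threshold or did not overlap; these were chosen after their values were seen. Exact Poisson intervals of ratios cover the counting error of the lower count only, with the higher count taken as fixed. Floors of 3 counts also cover counting error only. Neither covers the spread between libraries, unlike the 95% intervals of log2 values.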

Additional observations from a re-analysis of the deposited data

Results flagged for a closer look

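Mmp15 was singled out because the genotypes moved in opposite directions with EAE. All 3 cKO EAE libraries were above the mean log2 level of the cKO basal libraries, and all 3 control EAE libraries were below that of the control basal libraries. The difference of the responses, cKO minus control, was 0.86 ± 0.38 on the log2 scale (SE), with an adjusted p of 0.547 by edgeR's test over all genes, so it did not pass. Without cKO basal 2 and cKO EAE 3 it was 0.61 ± 0.30 with an adjusted p of 0.302, and the cKO response alone was then -0.03. The basal groups overlapped, and sex differs between EAE and basal libraries.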

How the results depend on the processing

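Counts of genes called depended on the test and on the libraries that stood apart. For EAE against basal in control, edgeR called 9 of 43, where 3183 of all 18601 genes were. DESeq2's Wald test called 14 of 46, where 4251 of 22633 were. With limma voom and sample weights it was 29 of 43, where 11120 of 18601 were. The 6 control libraries alone gave 23 of 41, where 8149 of 17872 were. The fit without cKO basal 2 and cKO EAE 3 gave 27 of 43, where 8673 of 18956 were. Leaving out 1 library at a time gave 8 to 25, with 1724 to 8166 of all genes called. Of the 9 calls, 8 passed in all 19 alternatives, and Mmp3 in 9 of 18. In cKO, edgeR called 0, DESeq2 7, voom 12 and the fit without both libraries 10, with 0 to 7 when 1 library was left out. Without the filter 4 of 48 were called there, where 493 of 34672 genes were. For cKO against control at EAE, edgeR called 1, the replicate block 0, DESeq2 11, voom 14 and the fit of all 12 libraries 0. The count was 0 to 12 when 1 library was left out. No filter gave 4 of 48, where 1616 of 32378 genes were called. Mmp15 passed in 6 of 12 alternatives. For basal cords every alternative gave 0. The difference of responses was 0 except with voom, at 9.

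Signs turned for some uncalled values. The largest of these was Timp4 in cKO, at -0.94 with all libraries, which turned without cKO basal 2. In cKO, Adamts5 was 0.24 and Timp4 0.0036 with voom, and without both libraries Adamts5 was 0.22, Timp4 0.0635 and Mmp15 -0.0328. With 1 library left out, the control response of Mmp9 ran from -0.041 to 0.33, of Adamts4 from -0.38 to 0.0546 and of Timp4 from -0.0846 to 0.18. The cKO response of Mmp15 ran from -0.0193 to 0.47, of Adamts5 from -0.54 to 0.0166, of Timp2 from -0.27 to 0.0538 and of Timp4 from -1.28 to 0.0463, and Mmp9 at EAE from -0.071 to 0.31. The cause was not tested.

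Replicate numbers did not pair the libraries. Deviations of log2 levels from the group mean were correlated between libraries of different groups. These correlations were -0.53 to 0.46 for same-numbered libraries and -0.55 to 0.57 for others. With the number as a replicate block, 9, 0, 0, 0 and 0 members were called in the 5 comparisons, so Mmp15 was lost. Of all genes, 2509, 5, 0, 0 and 0 were called there. Depth limits Mmp7, Mmp10, Mmp13, Mmp21, Mmp27 and Adamts13.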
